A study of Mus musculus with 29 samples.

Results

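The genes described here are 10 genes that mark endothelial cells, the cells that line blood vessels: Cdh5, Pecam1, Kdr, Flt1, Tek, Tie1, Ptprb, Eng, Vwf and Sox17. They were listed by symbol, with earlier results of these data known. All 10 were among the 22537 gene symbols counted, and all 10 passed the filter on low counts in each comparison. They were measured by sequencing of poly-A RNA from whole tibialis anterior (TA), a fast muscle of the lower leg, from male C57BL/6 mice aged 6 months (6m, n = 7), 24 months (24m, n = 7) and 28 months (28m, n = 8). The labels name no treatment, transgene or deletion for any group, and they give the oldest group as 28 months or more. The study asked which genes differ between adult and old muscle, in mice whose physical function had been tested. Run 1 of the sequencer took the mice of 6m and 24m, and run 2 took those of 28m along with a further library of each of the 7 adult mice. The 28m mice were therefore set against the 6m libraries from run 2, and the 24m mice against those from run 1, so both comparisons share their control mice. The series' design text swaps the sizes of the old groups (8 at 24m, 7 at 28m), and the sample labels were followed.

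Muscle fibres are supplied by a dense net of capillaries, whose endothelial cells survive and keep their barrier through signals at a pair of families of receptor tyrosine kinases. Vascular endothelial growth factor A, made largely by the fibres, acts on the receptor of Kdr (VEGFR2), and the receptor of Flt1 (VEGFR1) binds the same ligand tightly and limits its action. The angiopoietin receptor of Tek (TIE2) is kept active by angiopoietin 1 from perivascular cells, works with the related receptor of Tie1, and is switched off by the phosphatase of Ptprb (VE-PTP). Cdh5 (VE-cadherin) and Pecam1 (CD31) hold neighbouring endothelial cells together. Eng (endoglin) is a co-receptor for bone morphogenetic proteins, Vwf makes the von Willebrand factor that tethers platelets, and Sox17 is a transcription factor of arterial endothelium.

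The promoters of the VEGF receptors Kdr and Flt1 and of Tek and Eng are shown because these 4 genes span the range of differences between 28m and 6m described below, from the largest fall to one of the smallest. In the RefSeq promoter table used here, 5 of the 10 genes were matched, and Cdh5, Pecam1, Ptprb, Vwf and Sox17 were not matched. Each line gives the 250 bases before the RefSeq transcription start, 5′ to 3′ on the strand of the gene, in build GRCm38.p6. The windows are chr5:75978456-75978705 for Kdr (minus strand), chr5:147726012-147726261 for Flt1 (minus), chr4:94739039-94739288 for Tek (plus) and chr2:32646345-32646594 for Eng (plus). Capitals mark every match, on either strand, to the ETS motifs CGGAAG and AGGAAG, the GATA motif AGATAA, the TATA box TATAAA, the GC box GGGCGG and the SOX motif ACAATG. ETS factors are the class of transcription factors best known from endothelial promoters.
Kdr: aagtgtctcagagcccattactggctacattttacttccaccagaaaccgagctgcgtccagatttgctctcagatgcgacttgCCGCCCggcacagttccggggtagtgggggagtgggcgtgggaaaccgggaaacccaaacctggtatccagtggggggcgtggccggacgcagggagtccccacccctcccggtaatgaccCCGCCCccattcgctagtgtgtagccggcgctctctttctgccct
Flt1: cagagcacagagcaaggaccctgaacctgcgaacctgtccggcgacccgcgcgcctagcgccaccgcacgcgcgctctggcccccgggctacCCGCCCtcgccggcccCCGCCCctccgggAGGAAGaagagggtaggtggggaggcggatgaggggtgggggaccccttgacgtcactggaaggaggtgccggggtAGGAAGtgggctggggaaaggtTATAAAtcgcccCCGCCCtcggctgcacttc
Tek: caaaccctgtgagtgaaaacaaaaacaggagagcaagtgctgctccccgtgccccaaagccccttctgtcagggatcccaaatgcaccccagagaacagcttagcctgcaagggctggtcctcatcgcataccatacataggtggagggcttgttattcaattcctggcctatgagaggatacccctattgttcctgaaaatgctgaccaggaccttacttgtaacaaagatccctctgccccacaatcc
Eng: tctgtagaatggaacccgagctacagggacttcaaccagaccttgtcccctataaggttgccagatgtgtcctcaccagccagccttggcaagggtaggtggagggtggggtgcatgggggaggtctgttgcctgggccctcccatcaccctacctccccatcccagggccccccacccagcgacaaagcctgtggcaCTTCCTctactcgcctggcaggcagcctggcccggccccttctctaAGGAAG
The Kdr window held 2 GC boxes, with first bases at positions -166 and -45 from the start, and no TATA box. The Flt1 window held a TATA box at -31, AGGAAG at -129 and -53, and GC boxes at -158, -142 and -19. The Eng window held AGGAAG at -6 and its reverse complement at -52, and the Tek window held none of the letters searched. The window of Tie1, not printed because most of it lies inside the gene model of the other annotation, held CGGAAG at -232 and AGGAAG on the other strand at -219. Among 32851 mouse promoters of this length, 13.6% held CGGAAG, 29.5% AGGAAG, 12.4% TATAAA, 32.7% GGGCGG and 10.7% ACAATG, and 3281 held AGATAA. A match is a description of letters and not a bound site.

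Counts on genes were between 17633475 and 33499162 per library over the 29 libraries. The 10 genes had between 217 and 3605 counts each in every library, so depth did not limit their measurement. Values are given as CPM, a gene's counts relative to the scaled total of its library, with TMM factors over all libraries. In the libraries of the 28m comparison, 12994 genes were tested, and 6140 of them (47.3%) had an adjusted p under 0.05 in the quasi-likelihood test of edgeR, adjusted after Benjamini and Hochberg, 2981 lower (22.9%) and 3159 higher (24.3%) at 28m. The median log2 fold change of all genes was 0.01. Replicate 4 at 24m and the first-run library of replicate 4 at 6m stood apart from the other libraries of their groups, and results that rest on them are given with and without them.

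At 28m, 9 of the 10 endothelial genes were lower than at 6m with an adjusted p under 0.05, beside 22.9% of all genes that were lower, and the tenth, Sox17, was not called. The count was 7 with the trend of each library with transcript length and GC content removed, 6 with the mouse as a block, 5 against the 6m libraries of run 1, and 1 with the length trend as a covariate. Fewer of all genes were called in each of these fits too. With the trend removed 15.6% of all genes were lower, and the counts of the other fits are given further below. Among genes of 8000 to 17000 exonic bases, the range of Kdr, Flt1, Ptprb and Vwf, 49.3% of all genes were called lower. The median log2 fold change of the 10 genes was -0.71. Kdr was the only one that also passed the limit of 1 on the absolute log2 fold change set for DEGs, which 3.37% of all genes passed on the lower side. With the length and GC trend removed, Kdr was at -0.93 and no longer passed this limit. In Kdr, Cdh5, Tek, Tie1 and Ptprb, every one of the 8 oldest mice lay below every one of the 7 adult mice, a separation found downward in 6.18% of the genes tested. The summed level of the 10 genes was 669.6 ± 27.3 CPM (SD, n = 7) at 6m in the second run and 421 ± 80.2 CPM (SD, n = 8) at 28m, with the highest 28m mouse at 558 CPM and the lowest 6m mouse at 631 CPM. In RNA of whole muscle, fewer endothelial cells and less of these RNAs per endothelial cell cannot be told apart.

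The receptor through which VEGF-A drives endothelial growth showed the largest difference. Kdr lies at chr5:75932827-75978458 (minus strand, GRCm38) with 29 exonic blocks. Its level was 68.5 CPM in the lowest, 73.4 in the median and 90.3 in the highest 6m library of the second run, and 15.2, 33.9 and 45.0 CPM at 28m. The groups were far from overlapping, and the lowest 28m mice, replicates 7 and 2 with 15.2 and 18.2 CPM, stood well below the other 6 mice, which lay between 30.7 and 45.0 CPM. Kdr fell to 41.0% of its 6m level, with a log2 fold change of -1.29 (SE 0.19, edgeR adjusted p = 0.000389). Flt1, the VEGF receptor that acts as a sink for the ligand, lies at chr5:147561604-147726011 (minus strand). At 6m its lowest, median and highest values were 60.1, 77.4 and 92.3 CPM, and at 28m 21.6, 34.4 and 71.3 CPM. Replicates 4 and 8 at 28m, with 71.3 and 65.4 CPM, lay within the 6m range, and the other 6 mice lay below it, at 40.7 CPM or less. The log2 fold change of Flt1 was -0.93 (SE 0.23, edgeR adjusted p = 0.00477). It was -0.49 when each library was corrected for a trend of its counts with transcript length and GC content, and the call was lost when run 1 supplied the 6m libraries (edgeR adjusted p = 0.0524).

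The genes of the angiopoietin receptor system were all lower at 28m, with unlike spread among the old mice. Tek (chr4:94739289-94874976, plus strand) had a lowest, median and highest value of 29.2, 34.2 and 36.9 CPM at 6m and of 16.4, 19.4 and 23.4 CPM at 28m. No 28m mouse came near the 6m range, and the 28m mice differed from each other with a coefficient of variation (CV) of 11.5%, against 33.6% for Kdr and 45.6% for Flt1. The CV at 28m was 15.4% for Tie1 and 25.3% for Ptprb, and 11.7% for Pecam1, which is outside this system. Tek fell by 0.80 on the log2 scale (SE 0.085) and had the smallest edgeR adjusted p of the 10 genes, 5.55e-05. Its partner Tie1 (chr4:118471191-118490061, minus strand) went from 51.9, 56.5 and 65.1 CPM at 6m to 30.3, 37.7 and 46.3 CPM at 28m, again with no overlap (log2 fold change -0.63, SE 0.098, edgeR adjusted p = 0.000486). Ptprb, which encodes the phosphatase that opposes Tek (chr10:116275523-116389535, plus strand), had values of 97.1, 106 and 119.8 CPM at 6m and of 46.8, 55.9 and 89.2 CPM at 28m. Its 28m mice lay below the 6m range with replicate 8 nearest to it, and its log2 fold change was -0.85 (SE 0.14, edgeR adjusted p = 0.000506), or -0.40 with the length and GC trend removed.

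The junction genes Cdh5 and Pecam1 did not fall by the same amount. Cdh5 (chr8:104101625-104144511, plus strand) had a lowest, median and highest value of 104, 122 and 134 CPM at 6m and of 44.7, 69.6 and 94.4 CPM at 28m. Its groups did not overlap, and replicates 7, 3 and 2 at 28m, between 44.7 and 46.8 CPM, were lowest. The log2 fold change of Cdh5 was -0.87 (SE 0.16, edgeR adjusted p = 0.000919). Pecam1 (chr11:106654217-106750628, minus strand) went from 79.0, 84.3 and 102 CPM at 6m to 58.5, 74.7 and 86.3 CPM at 28m. Its groups overlapped, with 6 of 8 old mice under the whole 6m range, and it fell to 83.1% of the 6m level (log2 fold change -0.27, SE 0.090, edgeR adjusted p = 0.0232). With the length and GC trend removed its log2 fold change was -0.04 (edgeR adjusted p = 0.765). Without 6m replicate 5, the mouse with the highest Pecam1 value, the adjusted p was 0.0555, and with the mouse as a block over all 29 libraries it was 0.0916 by limma-voom.

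Of the other 3 genes, Eng and Vwf were lower near the threshold and Sox17 was not called. Eng (chr2:32646595-32682669, plus strand) had values of 46.9, 56.3 and 62.1 CPM at 6m and of 32.0, 44.4 and 56.7 CPM at 28m, with 5 of 8 old mice below the 6m range (log2 fold change -0.32, SE 0.12, edgeR adjusted p = 0.0313). The call was lost without any one of 6m replicates 3, 4, 5 or 6 or 28m replicates 2, 3 or 5, with an adjusted p of up to 0.0662, and with the mouse as a block (limma-voom adjusted p = 0.0897). Of the exonic bases of Eng, 61 are shared with Fpgs on the other strand, and the strand setting of the counting is not stated. Vwf (chr6:125546774-125686679, plus strand) had values of 41.3, 48.1 and 53.1 CPM at 6m and of 19.5, 32.9 and 54.2 CPM at 28m. The old mice spread widely in Vwf, with a CV of 36.4% against 9.06% at 6m, with 6 mice below the 6m range and replicate 8 above it. Its log2 fold change was -0.50 (SE 0.19, edgeR adjusted p = 0.0414), and it turned to 0.06 with the length and GC trend removed (edgeR adjusted p = 0.707). The call was kept only without 6m replicate 2 or 28m replicates 4, 6 or 8, and lost without any other single mouse, with an adjusted p of up to 0.0770, and with the mouse as a block (limma-voom adjusted p = 0.103). Sox17 (chr1:4490931-4497354, minus strand) was between 10.5 and 14.7 CPM at 6m and between 11.5 and 16.0 CPM at 28m, so that the groups overlapped. The log2 fold change of Sox17 was 0.07 with a 95% interval from -0.12 to 0.25 (edgeR adjusted p = 0.562). Of its exonic bases, 16.8% are shared with Gm37587 on the other strand, a gene that the count table does not list.

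**Figure D1:**
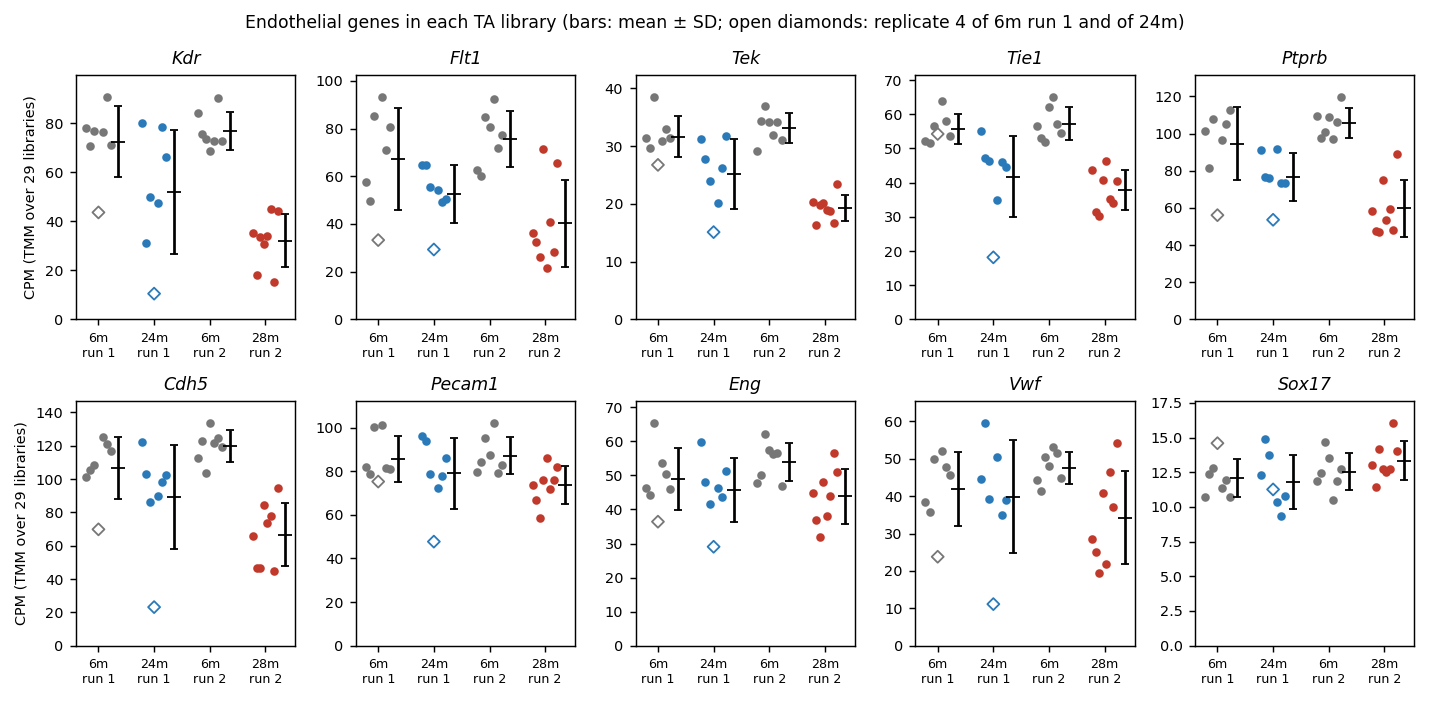
CPM of each of the 10 endothelial genes in each TA library, with the groups 6m run 1, 24m run 1, 6m run 2 and 28m run 2 on the x axis, 1 point per library, and bars for the mean ± SD. Open diamonds are replicate 4 of 6m run 1 and of 24m. In Kdr, Cdh5, Tek, Tie1 and Ptprb, all 8 points at 28m lie below the 7 points of 6m run 2, and in Sox17 the groups overlap.

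The make-up of the summed endothelial counts differed between the ages, and it also moved between libraries of 1 mouse. Pecam1 held 13.02 ± 1.05% (SD, n = 7) of the counts of the 10 genes at 6m and 17.9 ± 2.48% (SD, n = 8) at 28m, and the highest 6m mouse (14.5%) lay just below the lowest 28m mouse (14.7%). The share of Kdr was 11.5 ± 1.34% at 6m and 7.58 ± 2.19% at 28m, and that of Sox17 1.87 ± 0.21% and 3.27 ± 0.72%. The shares of Tek, 4.95 ± 0.39% and 4.67 ± 0.65%, differed by less than the spread between mice. A share rises when the other genes fall more, so the shares restate the unequal falls and are no separate finding. In 6m replicate 4, Pecam1 held 17.35% and Sox17 3.363% of these counts in the first-run library, which lay within the 28m range, and 12.59% and 1.951% in the second-run library. The first-run library of this mouse also had a length trend like that of most 28m libraries, described with the other libraries after the comparisons, and the part of that trend in the make-up was not tested. To set the genes against an endothelial gene rather than against the whole library, each library was scaled to its Pecam1 count, an alternative chosen after seeing the data. This scaling moved the median log2 fold change of all genes to 0.28, and 7.72% of the genes were lower and 39.6% higher. Kdr (-1.03, SE 0.20), Flt1, Cdh5, Ptprb, Tek and Tie1 (-0.37) were still lower at 28m, with edgeR adjusted p-values between 0.000846 for Kdr and 0.0126 for Flt1. Eng (-0.06, edgeR adjusted p = 0.698) and Vwf (-0.25, edgeR adjusted p = 0.240) were not called relative to Pecam1. Sox17 was at 0.34, near the median of all genes on this scale (edgeR adjusted p = 0.0367), and that call was lost without any one of 6m replicates 1, 2, 5 or 6 or 28m replicates 1, 3 or 7. Since the scaling raises each gene by about the fall of Pecam1, these values restate the unequal falls and are no separate evidence.

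At 24m, none of the 10 genes was called against the run 1 libraries at 6m. Across all 13103 genes tested there, 11 (0.0840%) had an adjusted p under 0.05, 3 lower (0.0229%) and 8 higher (0.0611%), in the quasi-likelihood test of edgeR, adjusted after Benjamini and Hochberg, 1546 had an unadjusted p under 0.05, DESeq2 called 182, and limma-voom with the mouse as a block called 42. The log2 fold changes of the 10 genes were between -0.49 for Kdr and -0.04 for Sox17, with a median of -0.29 against 0.03 for all genes. Tie1 and Tek had the smallest p-values. In Tie1 the lowest, median and highest values were 51.5, 54.2 and 64.0 CPM at 6m and 18.2, 45.9 and 55.0 CPM at 24m, and 6 of 7 old mice lay below the 6m range (log2 fold change -0.42, SE 0.18, unadjusted p = 0.0358, edgeR adjusted p = 0.405). In Tek, 4 of 7 mice at 24m lay below the 6m range (log2 fold change -0.34, SE 0.16, unadjusted p = 0.0447, edgeR adjusted p = 0.417). Kdr spread from 10.5 CPM in replicate 4 to 79.9 CPM in replicate 1, with a median of 49.98 CPM, against 43.6, 76.5 and 90.8 CPM at 6m, and the groups overlapped (log2 fold change -0.49, SE 0.33, edgeR adjusted p = 0.537). Of the remaining genes, Flt1, Ptprb and Cdh5 had log2 fold changes of -0.36, -0.32 and -0.27, and Pecam1, Eng and Vwf of -0.13, -0.11 and -0.08, with intervals that included 0. In none of the 10 genes did all 24m mice lie below all 6m mice, which 0.229% of the genes tested did.

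Much of the 24m spread came from 1 mouse. Replicate 4 at 24m had the lowest value of its group in 9 of the 10 genes, with 23.2 CPM for Cdh5 against 86.3 to 122 CPM in the other 6 mice, 18.2 CPM for Tie1 and 11.1 CPM for Vwf. Its summed level of 249 CPM was below that of every 28m mouse, the lowest of which had 327 CPM. Sox17 in this mouse, at 11.3 CPM, was the median of the group. Without it no endothelial gene passed the test at 24m either, and the log2 fold change of Vwf turned from -0.08 to 0.09. With both replicate 4 at 24m and the first-run library of replicate 4 at 6m left out, a choice made after seeing the data, 121 genes passed and none of the 10 did, and Sox17 went from -0.04 to 0.02.

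Whether the difference at 28m was larger than that at 24m was tested over all 29 libraries. No gene of 13455 had an adjusted p under 0.05 in the quasi-likelihood test of edgeR, adjusted after Benjamini and Hochberg (1611 had an unadjusted p under 0.05, and DESeq2 called 4). That fit did not pair the libraries of an adult mouse, and limma-voom with the mouse as a block called none of the 10 genes either. The estimates of 9 of the 10 genes were more negative at 28m. Tek had a difference of -0.45 (SE 0.17, unadjusted p = 0.0120, edgeR adjusted p = 0.399) and Ptprb of -0.52 (SE 0.20, unadjusted p = 0.0160, edgeR adjusted p = 0.399), and Kdr had one of -0.78 with a 95% interval from -1.57 to 0.01. This result rests on replicate 4 at 24m. Without that library 1657 genes passed, among them Kdr (-0.96), Cdh5 (-0.76), Ptprb (-0.59) and Tek (-0.54), with edgeR adjusted p-values between 0.0389 and 0.0461. With the first-run library of 6m replicate 4 left out besides, no gene passed, and the smallest edgeR adjusted p of the 10 genes was 0.0773, for Cdh5 and Tek.

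**Figure D2:**
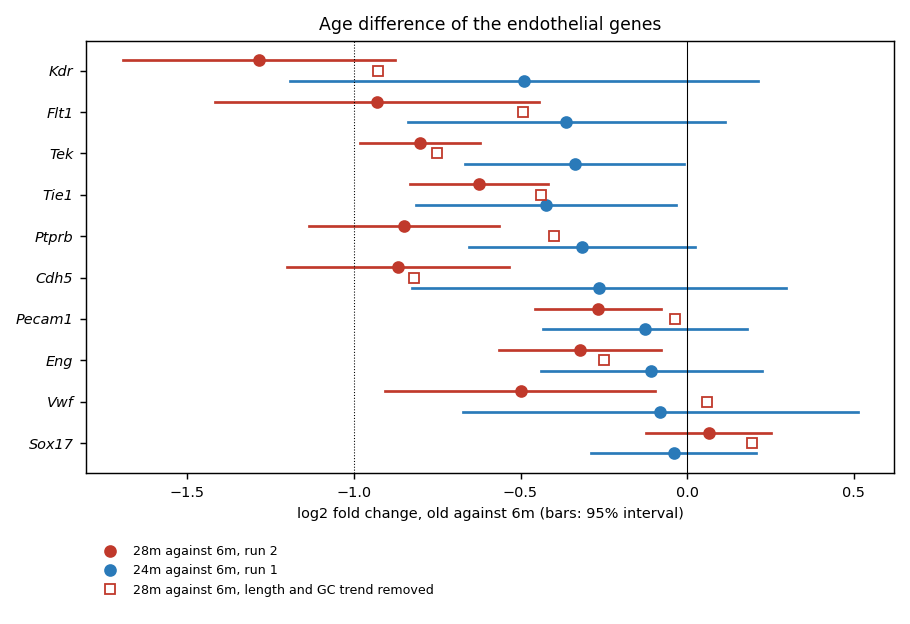
Log2 fold change of each endothelial gene (y axis) at 28m against 6m (red, run 2) and at 24m against 6m (blue, run 1), with bars for the 95% interval. Open squares are the 28m values after correction of each library for its length and GC trend, and the dotted line marks the DEG limit. Kdr lies past the limit at 28m (-1.29), and its open square (-0.93) does not. The open squares of Vwf (0.06) and Pecam1 (-0.04) lie near 0.

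The 6m mice, each with a library in both runs, show how far the genes moved when the library of a sample was prepared and sequenced again. No gene of 12884 differed between the runs with an adjusted p under 0.05 in the quasi-likelihood test of edgeR, adjusted after Benjamini and Hochberg (357 had an unadjusted p under 0.05), and the 10 genes differed by 0.03 to 0.19 on the log2 scale. That fit did not pair the libraries. With the mouse as a block, edgeR also called no gene (1052 had an unadjusted p under 0.05), the 10 genes differed by 0.035 to 0.227, and the smallest edgeR adjusted p among them was 0.498. In 6 of the 7 mice, every endothelial gene lay within -0.12 and 0.27 between its libraries. Replicate 4 differed. Its first-run and second-run values were 33.3 and 80.8 CPM for Flt1, 69.8 and 134 CPM for Cdh5 and 43.6 and 68.5 CPM for Kdr. The log2 differences were 1.28 for Flt1, 1.02 for Vwf, 0.96 for Ptprb, 0.94 for Cdh5, 0.66 for Eng and 0.65 for Kdr. They were smaller in Tek (0.35), Pecam1 (0.22) and Tie1 (0.20), and Sox17 was lower in the second run (-0.11). In all of the genes but Tek and Tie1, the first-run library of this 6m mouse had a level also found among the 28m mice.

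**Figure D3:**
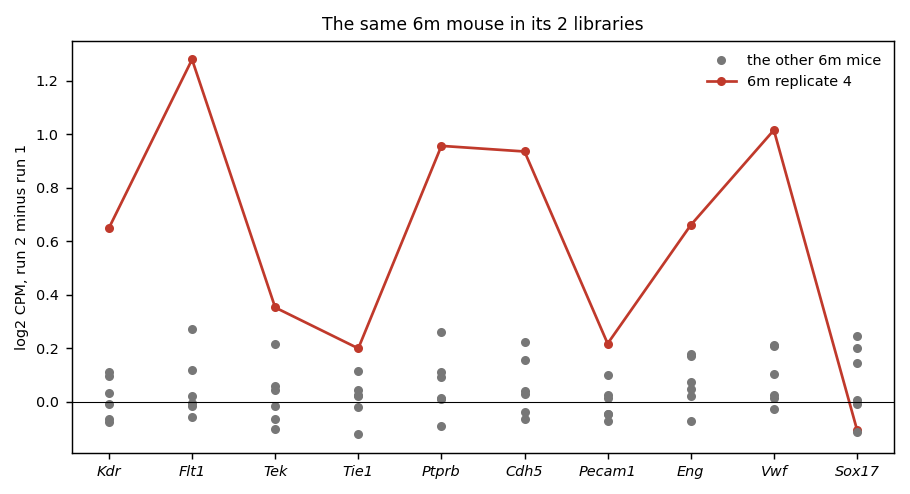
Log2 difference in CPM between the second-run and first-run library of the same 6m mouse, for each endothelial gene on the x axis. Grey points are the other 6m mice, which lie between -0.12 and 0.27, and the red line is replicate 4, which reaches 1.28 in Flt1.

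Libraries differed in how their counts related to transcript length, and some of the endothelial genes moved with this measure. For each library, the deviation of 13322 genes from their means over all libraries was set against exonic length by Spearman's rho, a correlation over genes, whose values are not independent. It was between 0.34 and 0.45 in the 6m libraries of run 2. At 28m it was negative in 6 of the 8 libraries, from -0.09 in replicate 6 to -0.52 in replicate 7, and positive in replicates 4 (0.17) and 8 (0.27). In the first run it was -0.47 for 6m replicate 4 and -0.39 for 24m replicate 4, the libraries that stood apart above, and -0.04 or higher in the others. The log2 fold change of all genes at 28m fell with exonic length (rho = -0.54), with a median of -0.36 for genes of 8000 to 17000 bases, the range of Kdr, Flt1, Ptprb and Vwf. The median length of the 10 genes was 5573 bases, against 4489 for all genes. At 28m, replicates 4 and 8 had the 2 highest values of Flt1, Ptprb, Cdh5 and the sum, and their Kdr levels of 30.7 and 44.1 CPM were below the whole 6m range. Other genes did not follow this order. Pecam1 (86.3 CPM) and Tie1 (46.3 CPM) were highest in replicate 5, with a rho of -0.48, and Eng (56.7 CPM) and Sox17 (16.0 CPM) in replicate 7, the 28m library with the lowest rho.

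**Figure D4:**
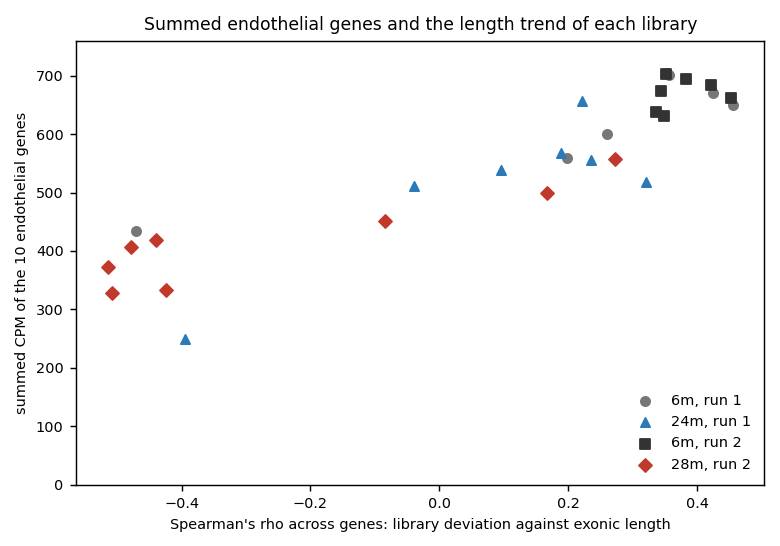
Summed CPM of the 10 endothelial genes (y axis) against the Spearman's rho of each library between gene deviations and exonic length (x axis), 1 point per library. The 7 libraries with a rho between -0.52 and -0.39 have sums between 249 and 434 CPM, and the 6m libraries of run 2 lie between 631 and 703 CPM.

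Correcting each library for its trend with length and GC left 7 of the 10 genes lower at 28m, beside 15.6% of all genes lower and 21.6% higher. Kdr (-0.93, SE 0.16, edgeR adjusted p = 0.000865), Cdh5 (-0.82, SE 0.14, edgeR adjusted p = 0.000719) and Tek (-0.75, SE 0.076, edgeR adjusted p = 4.62e-05) then had the largest differences. Flt1 (-0.49), Tie1 (-0.44), Ptprb (-0.40) and Eng (-0.25) were lower with edgeR adjusted p-values between 0.00122 for Ptprb and 0.0462 for Eng. Pecam1 and Vwf lost their calls. Entering each library's rho as a covariate, chosen after seeing the data, left 68 genes called, 13 of them lower, and Tek was the only endothelial gene among them. In that fit Kdr had a log2 fold change of -0.78 (SE 0.23) and Flt1 of 0.08. Since rho and age moved together, what belongs to the one and to the other cannot be told apart in that fit.

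Lists of related genes are given with their counts at 28m, beside 22.9% of all genes lower and 24.3% higher, and with the counts after the length and GC trend was removed, beside 15.6% lower and 21.6% higher. Of 8 ligand genes tested at 28m, 2 were lower, 1 was higher and 5 were not called, with a median log2 fold change of 0.09. Vegfa, which encodes the main ligand of Kdr, went from 329 ± 45.3 CPM (SD, n = 7) to 232 ± 44.2 CPM (SD, n = 8), a log2 fold change of -0.53 (SE 0.12, edgeR adjusted p = 0.00278). Figf, which encodes VEGF-D, went from 5.07 ± 0.54 to 7.71 ± 1.13 CPM (log2 fold change 0.58, SE 0.11, edgeR adjusted p = 0.00122). With the trend removed, 4 ligands were lower and none was higher, and Figf was not called (0.28, edgeR adjusted p = 0.0559). The second lower ligand was Angpt1, which encodes the angiopoietin that activates the Tek receptor (-0.49, SE 0.14, edgeR adjusted p = 0.0109), named after its values were seen. Of 11 co-receptors and further receptors of these pathways, 8 were lower and none was higher (median -0.59). They included Bmpr2, a receptor for bone morphogenetic proteins (-1.76, SE 0.43, edgeR adjusted p = 0.00426), Flt4, the VEGF receptor of lymphatic endothelium (-0.88), and Nrp1, a VEGF co-receptor and the most abundant of them (-0.37). With the trend removed 2 of the 11 were lower, Flt4 and Bmpr2, and Nrp1 was at -0.03 (edgeR adjusted p = 0.909). Of 11 genes that carry the receptors' signals, 7 were lower, 1 of them Tie1, and none was higher (median -0.63), and 6 were lower with the trend removed. Plekhg1, a guanine nucleotide exchange factor, was lower by a log2 fold change of -1.15 (edgeR adjusted p = 0.000205).

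Among 20 endothelial transcription factors, 5 were lower and 1 higher at 28m (median -0.11), a share of lower genes near that of all genes, with Ets1 at -0.68 and Epas1, the most abundant, at -0.62. With the trend removed 3 were lower and 1 higher, and Ets1 was not called (-0.34, edgeR adjusted p = 0.104). Among 21 junction and surface genes, 10 were lower, 3 higher and 8 not called (median -0.24), and 9 were lower and 1 higher with the trend removed. The 3 higher genes, named after their values were seen, were Cldn5 (0.73), Icam2 (0.66) and Egfl7 (0.48). Jam2, a junctional adhesion molecule, was lower by a log2 fold change of -0.89 (SE 0.11, edgeR adjusted p = 9.11e-05), Podxl, which encodes podocalyxin, had a log2 fold change of -0.87 and Gpr116, an adhesion receptor of vessels, of -0.74. Capillary genes were 2 lower, Kdr among them, and 4 higher of 14 (median 0.07), near the shares of all genes, and 2 lower and 2 higher with the trend removed. Gpihbp1, which carries lipoprotein lipase across capillary endothelium, rose from 21.1 ± 2.06 to 37.5 CPM (log2 fold change 0.80, SE 0.15, edgeR adjusted p = 0.00101), and the enzyme's own gene Lpl, made mostly by fibres, had a log2 fold change of -0.03 (edgeR adjusted p = 0.850).

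Of 18 arterial genes, Sox17 among them, 7 were lower and 2 higher (median -0.21), and with the trend removed 2 were lower and 1 higher (median -0.02). Hey1, a target of Notch signalling, rose (log2 fold change 0.88, SE 0.12, edgeR adjusted p = 0.000239), and the Notch ligand Jag1 (-0.48) and the chemokine gene Cxcl12 (-0.40) fell. The calls of Hey1 and Jag1 held with the trend removed, and Cxcl12 was then at -0.03 (edgeR adjusted p = 0.815). Of 10 venous genes 2 were lower, Ephb4 (-0.36) and Vwf, and of 7 lymphatic genes 3 were lower, Flt4 and Reln (-0.85) among them, with none higher in either list. With the trend removed no venous gene was lower and 1 was higher, with Ephb4 at -0.20 (edgeR adjusted p = 0.0517), and 2 lymphatic genes were lower, with Reln at -0.21 (edgeR adjusted p = 0.270). Among 9 haemostasis genes, 2 were lower and 1 higher, before and after the trend was removed, with Entpd1, an enzyme that removes the platelet activator ADP, at -0.64. Anxa2, the most abundant gene of that list, had a log2 fold change of 0.52 (edgeR adjusted p = 0.153). All 11 genes of the vessel basement membrane, the matrix sheet under the endothelium, were lower, with a median of -1.12. Hspg2, which encodes perlecan, went from 302 ± 31.3 to 109 ± 48.6 CPM (log2 fold change -1.50, SE 0.24, edgeR adjusted p = 0.000563) and the laminin chain gene Lamc1 fell by 1.12 (edgeR adjusted p = 0.000528). Muscle fibres and fibroblasts also make these proteins, and with the trend removed 7 of the 11 were lower, with a median of -0.76. At 24m no gene of these lists was called. All lists were drawn up with earlier results of these data known.

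**Figure D5:**
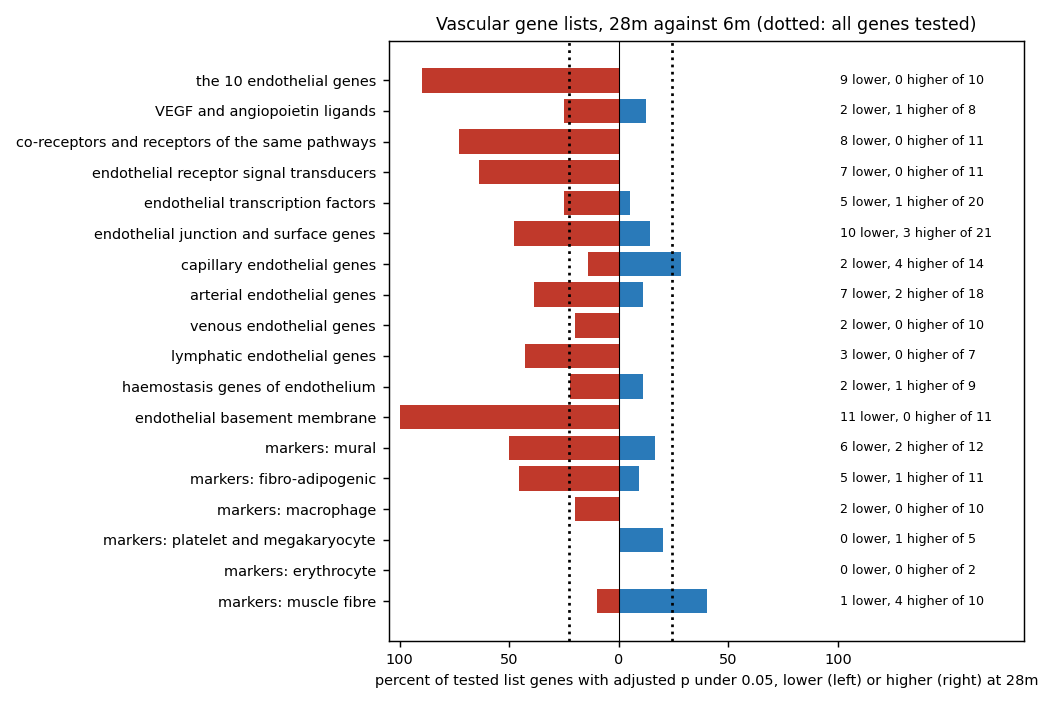
Percent of the tested genes of each list with an adjusted p under 0.05 at 28m against 6m, lower to the left and higher to the right, with the counts at the right margin. Dotted lines mark the percent over all genes tested, 22.9% lower and 24.3% higher. The endothelial genes (9 of 10) and the basement membrane genes (11 of 11) have the longest bars on the lower side, with 7 of 10 and 7 of 11 after the length and GC trend was removed, and capillary genes have 4 higher and 2 lower genes, then 2 and 2.

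Markers of other cell types in the same libraries were followed as well. The same shares of all genes, 22.9% lower and 24.3% higher, apply to their counts. Of 12 mural markers, which mark the smooth muscle cells and pericytes around vessels, 6 were lower and 2 higher (5 and 1 with the length and GC trend removed), with Pdgfrb, the receptor that recruits pericytes, at -0.50 and Des at 0.64. The summed level of mural markers was 4223 to 4573 CPM at 6m and 5085 to 7708 CPM at 28m, most of it from Des, which fibres also express. Of 11 markers of fibro-adipogenic cells, 5 were lower and 1 higher, and their sums of 746 to 3774 CPM at 6m and 469 to 1720 CPM at 28m overlapped. Pdgfra (-0.92) and Col1a1 (-1.88) were lower and Dcn (-0.15, edgeR adjusted p = 0.657) was not called. With the trend removed 1 fibro-adipogenic marker was lower and none higher, and Pdgfra (-0.48, edgeR adjusted p = 0.0770) and Col1a1 (-1.48, edgeR adjusted p = 0.0516) were not called. Of 10 macrophage markers, Mertk (-0.99) and Cd163 (-0.79) were lower, C1qa had a log2 fold change of 0.90 (edgeR adjusted p = 0.123), and the sums were 50.8 to 154 CPM at 6m and 57.8 to 364 CPM at 28m. Of 5 platelet and megakaryocyte markers tested, which can also share Vwf, only Itga2b was called (0.78), and the values were 1.19 for Pf4 and -0.30 for Gp1ba, which was called with the trend removed (-0.47, edgeR adjusted p = 0.0162). The sums of these markers were 10.04 to 17.1 CPM at 6m and 9.07 to 64.2 CPM at 28m. The globin genes Hba-a1, Hba-a2 and Hbb-b2 had no count in any group and Hbb-b1 was at or under 3 counts. Whether globin reads were left uncounted was not tested, so these counts are no measure of blood in the muscle. Neither tested erythrocyte marker, Alas2 (-0.43) or Slc4a1 (-0.46), was called. Of 10 fibre markers, 4 were higher, among them Mylpf (0.93) and Tnni2 (0.80), and Myh4 (-0.48) was lower, and with the trend removed 2 were higher and 1 lower, with Mylpf and Tnni2 at 0.40 and 0.39 and Myh4 not called (-0.25, edgeR adjusted p = 0.103). The part of these cell types in the endothelial values was not tested.

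Per kilobase of exonic length, taken over all annotated exons of a gene, Cdh5 was the most abundant at 6m in the second run, with 28.5 ± 2.25 CPM per kb (SD, n = 7). The lengths of the expressed transcripts were not measured, so the order of the genes is approximate and depends on this length. Pecam1 (14.01), Eng (13.3) and Tie1 (11.6 CPM per kb) followed, then Kdr (8.50), Ptprb (7.94), Tek (7.03) and Flt1 (5.61), and last Vwf (2.97) and Sox17 (2.62 CPM per kb). Neighbours in this order did not differ beyond their combined SD for Pecam1 and Eng, Eng and Tie1, Kdr and Ptprb, and Vwf and Sox17. At 28m, Cdh5 was at 15.9, Pecam1 at 11.9, Eng at 10.9 and Kdr at 3.55 CPM per kb.

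Over the 29 libraries, with the mean of each of the 4 groups removed, the correlation of a gene with the mean of the other 9 was highest for Cdh5 (r = 0.93) and between 0.71 and 0.87 for Vwf, Tek, Pecam1, Tie1, Eng, Ptprb, Flt1 and Kdr, and it was -0.05 for Sox17. Such values were common. Among 13455 genes ranked by this correlation, Cdh5 was at rank 28, Vwf at 481, and the next 7 between 1045 for Tek and 2089 for Kdr. Without the 2 libraries that stood apart it was 0.80 for Cdh5, 0.26 for Kdr and between 0.54 and 0.73 for the other 7. The libraries share depth and length trends, so these values are a description, with no test. The closest pairs were not the same with and without the libraries that stood apart. Over all 29, Cdh5 with Tie1 (r = 0.870), Pecam1 with Tie1 (0.858) and Cdh5 with Kdr (0.857) came first, and without the 2 libraries Flt1 with Vwf (0.784), Flt1 with Ptprb (0.741) and Cdh5 with Ptprb (0.729) did, with Cdh5 and Tie1 at 0.666. The 10 genes outside the list with the pattern most like its mean over the 29 libraries were Iqsec1 (r = 0.97), Gpr125, Shank3, Mlxip, Crybg3, BC006779, Tti1, Dock6, Inpp5e and Nos3 (r = 0.95). Nos3 encodes the nitric oxide synthase of endothelium, and its log2 fold change at 28m was -0.60 (edgeR adjusted p = 0.00390).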

How the data were processed

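TA RNA enriched for poly-A was sequenced as 29 libraries of 22 mice. The authors mapped single-end reads of 75 bases to mm10 using STAR 2.5.4b, and the reads assigned to each gene were deposited as raw counts. The strand setting of the counting is not given in the sources used here. No column was left unmapped, and column names ending in repeat showed which libraries came from a mouse sequenced before. The labels give a smaller RNA input per library than the methods do.

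The quasi-likelihood test of edgeR 4.0.16 (R 4.3.3) was applied to the counts after filterByExpr and with TMM factors of the libraries compared, adjusted after Benjamini and Hochberg over all genes tested, with a threshold of 0.05. DEGs were required to reach 1 in absolute log2 fold change. Standard errors and 95% intervals were derived from this test. The difference between the age effects was a contrast of the 4 groups of libraries. Values of single mice are CPM scaled over the 29 libraries, and correlations used log2 CPM with a prior count of 2. Exonic lengths, GC content and positions came from GENCODE vM21 (GRCm38), for 20202 symbols directly and 1885 through a synonym, with 450 unmatched. Each library's length and GC trend was fitted with natural splines of 4 degrees of freedom each and used as an offset. The scripts were tested on simulated data.

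The 10 genes and the lists of related genes were chosen with earlier results of these data known. Besides the 10 genes, the text names the 2 genes of each list with the smallest p at 28m and the 1 with the largest mean CPM, and the 10 genes with the most similar pattern. Genes named after their values were seen are marked where they appear. Both libraries of an adult mouse deviated in the same direction from their group means, with correlations across genes of 0.218 to 0.814 over the 7 mice, so the numbers pair these libraries. No adult mouse was also an old mouse, so age comparisons are unpaired. Alternatives were DESeq2 1.42.0 as a test or for its size factors, limma-voom (limma 3.58.1), with or without the mouse as block, scaling by the upper quartile, no filter or a minimum of 10 counts per library, all 29 libraries in 1 fit, 6m libraries from the other run, the length and GC correction, and leaving out each library. Matplotlib 3.10.9 (Python 3.11.15) drew the figures.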

Additional observations from a re-analysis of the deposited data

Results flagged for a closer look

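In 4 of 48 groups of values examined, the value of 1 library lay farther from the nearest other library than Dixon's 95% limit allows. Chance raises such a mark in about 1 of 20 groups. At 24m, Cdh5 was 23.2 CPM in replicate 4 and between 86.3 and 122 CPM in the other 6 mice. The summed level of the 10 endothelial genes in the same library was 249 CPM, against 512 to 657 CPM in the others. In the first-run libraries at 6m, Kdr was 43.6 CPM in replicate 4 and between 70.7 and 90.8 CPM in the other mice, and the Spearman's rho of that library between gene deviations and exonic length was -0.471, against 0.198 to 0.456 in the others. In its second-run library, the same mouse had 68.5 CPM of Kdr, the lowest value of that group, and a rho of 0.383. The 24m mouse was sequenced once, so no second library of it could be compared.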

How the results depend on the processing

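Kdr, Cdh5, Tek, Tie1 and Ptprb stayed lower at 28m in each alternative, and they passed the test in each one but the fit with the length trend of each library as a covariate, where only Tek did. Pecam1, Eng and Vwf were near the threshold. Upper-quartile scaling gave edgeR adjusted p-values of 0.0550, 0.0600 and 0.0531 for them, and a fit of all 29 libraries 0.0833, 0.0702 and 0.102. With run 1 libraries as the 6m group, 2981 genes and 5 of the 10 endothelial genes were called, and Flt1 (-0.76, edgeR adjusted p = 0.0524), Pecam1, Eng and Vwf were not. Without replicate 4 of those libraries, Eng (0.151) and Vwf (0.127) were not called by edgeR. The length trend as a covariate left 68 genes and 1 endothelial gene, and turned Flt1 to 0.078 and Vwf to 0.262. Removing the length and GC trend turned Vwf to 0.059. With 1 library left out in turn, 5297 to 6688 genes and 6 to 9 endothelial genes were called at 28m.

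At 24m no alternative called an endothelial gene. The count of all genes called there was 182 by DESeq2, 4 with at least 10 counts in every library, 152 with all 29 libraries in 1 fit, 46 against the 6m libraries of the second run, 17 with the length and GC trend removed, 121 without both libraries that stood apart, 30 with the length trend as a covariate, and 4 to 30 with 1 library left out. Vwf turned to 0.102 with the covariate and was between -0.212 and 0.085 with 1 library left out, above 0 without 24m replicate 4. Sox17 turned to 0.022 without both libraries that stood apart, and with 1 library left out it was between -0.111 and 0.008. Relative to Pecam1, Eng turned from 0.033 to -0.014 without both.

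In the difference between the ages, DESeq2 called 4 genes, and removing the length and GC trend turned Pecam1 to 0.099 and Vwf to 0.084. Leaving out 1 library gave 0 to 1657 genes and 0 to 4 endothelial genes, and the count above 0 came from leaving out 24m replicate 4. Between the 6m libraries, Pecam1 was -0.003 to 0.053 with 1 mouse left out. With the mouse as a replicate block, the correlation of the libraries of a mouse was 0.735, limma-voom called 4510 genes and 6 endothelial genes at 28m and 42 genes at 24m, and the block changed no other call than those of Pecam1, Eng and Vwf. The cause of these shifts was not tested.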
